A study of Mus musculus with 4 samples.

Results

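The pericentral Wnt target genes of the liver were followed as a fixed list of 10 named genes, *Glul*, *Lect2*, *Rhbg*, *Slc1a2*, *Axin2*, *Nkd1*, *Rnf43*, *Znrf3*, *Lgr5* and *Tbx3*. All 10 were found among the 20642 gene symbols of the deposited table, each with 1 transcript. All 10 also belonged to the 12705 genes taken as active, that is, genes with reads near the start and, on average, more than 4 normalized reads per kb in the gene body.

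PRO-seq (precision nuclear run-on sequencing) maps engaged RNA polymerases by letting them extend their RNA with biotin-labelled nucleotides in isolated nuclei. The libraries were made from C57BL/6 mouse livers on day 14 after birth, with 20000000 nuclei in each run-on, and the nuclei were pooled from several mice, so single mice cannot be compared. WT1 and WT2 came from mice with both *Hdac3* alleles intact (+/+), and KO1 and KO2 from mice with conditional or conditional and null alleles (F/F and F/-). Mice of both groups carried *Alb*-Cre, a Cre recombinase under the albumin promoter, which is active in hepatocytes. Whether other liver cells of KO mice also lost the conditional allele was not measured here. *Hdac3* encodes the deacetylase of the NCoR/SMRT corepressor complex.

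In the liver lobule, blood runs from the portal vein to the central vein, and hepatocytes differ in their metabolism along this path. Wnt proteins and R-spondins made by cells around the central vein keep beta-catenin stable in the neighbouring hepatocytes. Beta-catenin then joins TCF/LEF factors on DNA and switches on the pericentral programme, best known for glutamine synthesis. Several target genes encode inhibitors of the same pathway and so form negative feedback.

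Promoter sequences are shown for 3 members: *Glul*, with the highest promoter-proximal signal of the list, and *Slc1a2* and *Lect2*, the only members whose window held the TCF/LEF letters. The letters searched were CTTTG followed by a pair of letters that are each A or T, on either strand, and the capitals mark a match. Each run holds 300 bases, 250 upstream of the RefSeq start and 50 from it on, 5′ to 3′ on the gene's strand (RefSeq, build GRCm38.p6). *Glul* is chr1:153899679-153899978 on the plus strand, *Slc1a2* is chr2:102706188-102706487 on the plus strand, and *Lect2* is chr13:56548489-56548788 on the minus strand.
Glul: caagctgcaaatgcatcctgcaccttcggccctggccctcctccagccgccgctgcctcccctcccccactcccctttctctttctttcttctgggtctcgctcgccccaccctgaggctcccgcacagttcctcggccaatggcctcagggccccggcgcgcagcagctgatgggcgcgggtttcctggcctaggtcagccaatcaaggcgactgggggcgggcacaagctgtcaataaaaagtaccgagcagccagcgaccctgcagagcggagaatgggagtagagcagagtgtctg
Slc1a2: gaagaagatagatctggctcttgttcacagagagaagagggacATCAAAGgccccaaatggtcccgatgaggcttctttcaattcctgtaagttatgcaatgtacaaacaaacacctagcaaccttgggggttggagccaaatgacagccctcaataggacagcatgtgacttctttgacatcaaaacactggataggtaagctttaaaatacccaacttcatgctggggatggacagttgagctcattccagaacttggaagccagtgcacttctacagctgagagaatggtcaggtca
Lect2: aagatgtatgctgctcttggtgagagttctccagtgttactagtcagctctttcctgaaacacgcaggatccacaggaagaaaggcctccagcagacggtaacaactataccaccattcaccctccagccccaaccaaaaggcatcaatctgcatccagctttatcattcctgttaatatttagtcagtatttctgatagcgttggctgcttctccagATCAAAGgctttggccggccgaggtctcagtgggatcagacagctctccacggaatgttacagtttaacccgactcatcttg

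RefSeq windows were at hand for 6 members (*Axin2*, *Glul*, *Lect2*, *Nkd1*, *Slc1a2* and, with separate windows for different starts, *Rnf43*), and *Lgr5*, *Tbx3*, *Znrf3* and *Rhbg* had none. The match lay 32 bases upstream of the RefSeq start in *Lect2* and 207 bases upstream in *Slc1a2*, in both on the reverse strand. Thus 2 of 7 member windows held the letters, compared with 16.9% of all 32851 windows of the same length. The comparison depends on the letters, since 2 of 7 also held CTTTGAT (3.73% of all windows) and CTTTG alone (53.9%). The *Slc1a2* window shown does not belong to the start where reads were counted. That start lies 47779 bp further upstream, at position 102658659 of chromosome 2, so the printed promoter falls inside the counted gene body. The *Nkd1* window searched likewise belongs to a start downstream of the counted one.

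Between 16628518 and 26190040 reads on genes were recovered per library, and KO2 was the shallowest. Reads of the targeted gene did not pass the test, but a count over the whole gene body need not show the loss of a part of it. *Hdac3* had 665, 648, 609 and 582 normalized gene body reads in WT1, WT2, KO1 and KO2. Both KO libraries were lower, as in 42.8% of all active genes. The log2 fold change was -0.14 (SE 0.13, limma adjusted p = 0.413), and the genotypes rest on the labels. Promoter-proximal windows took 10.3% and 9.38% of the reads on genes in WT and 13.6% and 17.0% in KO. The median log2 fold change, KO over WT, of all active genes was 0.56 in promoter-proximal windows and -0.09 in gene bodies.

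**Figure D1:**
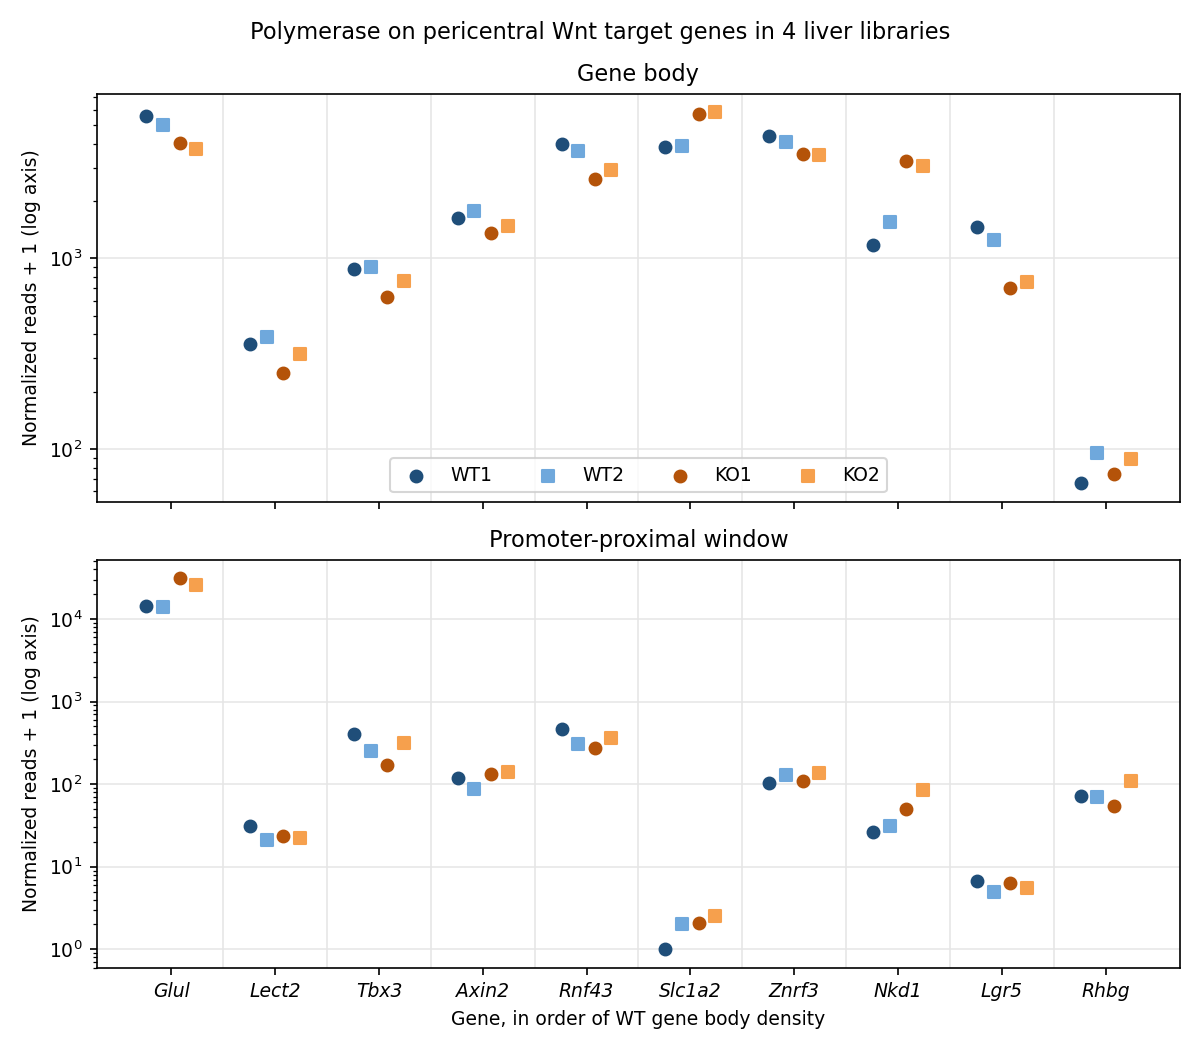
Normalized reads plus 1 on a log axis for each of the 10 genes in the gene body (top) and in the promoter-proximal window (bottom), with 1 point per library and genes ordered by WT gene body density. In the gene body, *Nkd1* and *Slc1a2* lie higher in both KO libraries, the 7 genes *Glul*, *Axin2*, *Lgr5*, *Tbx3*, *Rnf43*, *Znrf3* and *Lect2* lie lower, and *Rhbg* overlaps. *Glul* holds the most reads in the promoter-proximal window of every library.

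The members spanned a wide range of polymerase density. In WT gene bodies, *Glul* carried 605 normalized reads per kb (638 and 573 in the WT libraries), a density at percentile 99.3 of all active genes. *Lect2* (72.8 reads per kb), *Tbx3* (68.5), *Axin2* (58.1) and *Rnf43* (53.4) formed the next group by mean WT density. Within it, *Axin2* and *Rnf43* overlapped between libraries, and *Lect2* (69.8 and 75.8) lay just above *Tbx3* (67.7 and 69.4). *Slc1a2* had 29.4 reads per kb, *Znrf3* 25.3, *Nkd1* 18.7, *Lgr5* 9.97 and *Rhbg* 7.42, and the ranges of neighbours in this order did not touch. The density of *Slc1a2* is taken over 131102 bp, while further annotated starts lie up to 102514 bp downstream of the counted one. Its density and place in the order therefore depend on the start chosen. In KO the order changed, since *Nkd1* moved from rank 8 to rank 6, *Slc1a2* from 6 to 5 and *Rnf43* from 5 to 7. *Znrf3* moved from 7 to 8, and *Lgr5* and *Rhbg* swapped ranks 9 and 10. *Slc1a2* (43.4 and 44.7 reads per kb in KO) and *Nkd1* (44.9 and 42.3) overlapped there, as did *Lect2*, *Tbx3* and *Axin2*.

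Whether loss of *Hdac3* altered transcription of these genes was first asked in gene bodies, from 1 kb downstream of the start to the end of the transcript. KO and WT were compared with limma on log2(normalized reads + 1), so fold changes are on that scale. Genes with an adjusted p under 0.05 are said to rise or fall, and those that also exceed 0.6 in absolute log2 fold change are said to be called. By adjusted p, 2 members rose (*Slc1a2* and *Nkd1*) and 4 fell (*Glul*, *Lgr5*, *Tbx3* and *Rnf43*), compared with 17.0% and 22.1% of all active genes. Only *Nkd1* was called up and only *Lgr5* was called down, 1 of 10 in each direction, close to the 10.4% and 11.4% of all active genes. In 7 members both KO libraries lay below both WT libraries (42.8% of all active genes), and in 2 both lay above (27.6%). At an unadjusted p under 0.05, 2 members were higher and 7 lower in KO, compared with 19.7% and 27.0% of all active genes. The median change over the members was -0.31, with a range from -0.90 to 1.23. Hepatocyte markers, from *Alb* to *Hnf4a*, summed to 29810 and 32391 normalized gene body reads per kb in WT and 13655 and 13601 in KO, with 4 of 6 called down and 0 up, and the part of this shift in the members' changes was not tested. In such bulk nuclei, fewer cells of a type and less nascent RNA per cell cannot be told apart. With 2 libraries per group, an exact permutation test on a single gene cannot go below p = 0.33, so the adjusted p values rest on the spread shared across genes.

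The metabolic members moved in different directions. *Glul* (chromosome 1, 153899929 to 153909723) encodes glutamine synthetase, which captures ammonia in the last hepatocytes before the central vein. Its gene body held 5592 and 5025 normalized reads in WT and 4051 and 3737 in KO, with no overlap. This was a fall by 0.45 on the log2 scale (SE 0.11, adjusted p = 0.0021), to 0.734 of the WT level, and without KO2 the adjusted p was 0.055. *Slc1a2* (chromosome 2, 102658239 to 102790784) encodes a high-affinity glutamate transporter that supplies the substrate of glutamine synthetase. It went the other way, with 3829 and 3884 reads in WT and 5694 and 5861 in KO. The rise of 0.58 (SE 0.11, adjusted p = 9.34e-05) lay just under the threshold for a call, and without KO1 it was 0.60 and called. Because the counted gene body of *Slc1a2* includes further annotated starts, among them the one whose promoter is printed, reads from those starts are part of this value.

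*Rhbg* and *Lect2* did not pass the test. *Rhbg* (chromosome 3, 88242874 to 88254739), an ammonium transporter, had only 65.4 and 95 reads in WT and 73.2 and 88.1 in KO. These overlapped, and the 95% interval of the log2 fold change ran from -0.48 to 0.54. *Lect2* (chromosome 13, 56529734 to 56548559), which encodes a secreted hepatokine, had 355 and 385 reads in WT and 251 and 316 in KO. Its reads were counted over 5079 bp, a part of this span, so its density depends on the transcript chosen. Its KO libraries were both lower, with a log2 fold change of -0.39 (SE 0.16, adjusted p = 0.057).

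Among the feedback inhibitors, *Nkd1* rose, *Rnf43* fell, and *Axin2* and *Znrf3* did not pass the test. *Nkd1* (chromosome 8, 88521342 to 88594887) encodes a Dishevelled-binding antagonist of Wnt signalling. Its gene body held 1170.3 and 1546 reads in WT and 3258 and 3067 in KO, 2.35 times as many on the log2-based estimate. The log2 fold change was 1.23 (SE 0.12, adjusted p = 3.66e-08), and it lay between 1.03 and 1.43 with each library left out in turn. Without a filter on activity the adjusted p was 0.068. Further annotated starts lie 6299 and 61451 bp downstream of the counted one and thus within this gene body. The gene bodies of other members also hold annotated starts, the farthest at 36810 bp in *Rnf43*, 63107 bp in *Znrf3*, 2832 bp in *Axin2* and 1172 bp in *Glul*.

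*Axin2* (chromosome 11, 108917828 to 108950783) encodes a scaffold of the complex that marks beta-catenin for destruction. It had 1636 and 1783 reads in WT and 1362 and 1479 in KO, lower in both KO libraries, with a log2 fold change of -0.27 (SE 0.11, adjusted p = 0.069). The ubiquitin ligase genes *Rnf43* and *Znrf3*, whose products remove Wnt receptors from the cell surface, were also lower in both KO libraries. *Rnf43* (chromosome 11, 87663087 to 87735539) had 3979 and 3654 reads in WT and 2619 and 2901 in KO, and fell by 0.47 (SE 0.11, adjusted p = 0.0014). *Znrf3* (chromosome 11, 5276329 to 5444847) had 4405 and 4069 reads in WT and 3544 and 3494 in KO, with a log2 fold change of -0.27 (SE 0.11, adjusted p = 0.051).

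*Lgr5* (chromosome 10, 115450314 to 115587780) encodes a receptor for R-spondins and marks hepatocytes next to the central vein. Its gene body held 1466 and 1256 reads in WT and 702 and 752 in KO, which put KO at 0.536 of the WT level. The log2 fold change of -0.90 (SE 0.12, adjusted p = 3.00e-06) stayed called with each library left out in turn (-1.01 to -0.79), and without a filter on activity its adjusted p was 0.058. *Tbx3* (chromosome 5, 119670534 to 119684724) encodes a T-box transcriptional repressor. It had 875 and 897 reads in WT and 626 and 762 in KO, and fell by 0.36 (SE 0.13, adjusted p = 0.032). The adjusted p of *Tbx3* exceeded 0.05 without WT1 (0.053), WT2 (0.078) or KO1 (0.29), and stayed under it without KO2 (0.037).

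**Figure D2:**
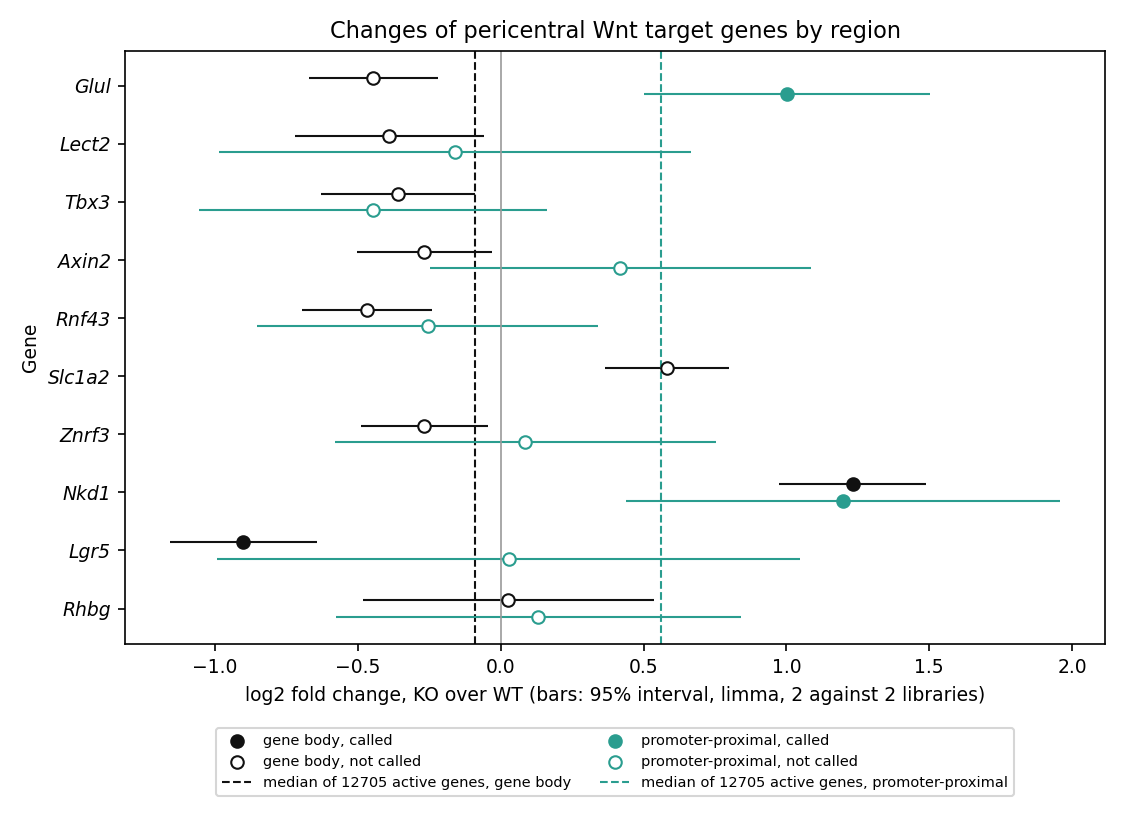
Log2 fold change, KO over WT, of each gene in the gene body (black) and in the promoter-proximal window (green), with 95% intervals from limma on 2 against 2 libraries; filled points are called, and dashed lines mark the median of all active genes in each region. Only *Nkd1* (up) and *Lgr5* (down) are called in gene bodies and *Glul* and *Nkd1* (both up) in promoter-proximal windows, and *Slc1a2* is not drawn for the promoter-proximal window because it holds at most 1 read per library.

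Polymerase near the start was measured in a promoter-proximal window, the 50 bp near the TSS that hold the most reads. In this region each limma SE followed the trend over all active genes and took nothing from the gene's own replicates. Here *Glul* and *Nkd1* were called up, 2 of 10 members compared with 25.8% of all active genes, and 0 were called down (2.20%). At an unadjusted p under 0.05 the counts were also 2 up and 0 down, compared with 39.9% and 3.51% of all active genes, and edgeR and DESeq2 on the recovered reads also called 0 down. *Slc1a2* had at most 1 read per library in this window and is left out of the next counts. Both KO libraries lay above both WT libraries in 3 of the 9 other members (61.9% of active genes), and in 0 members below (6.72%). The median change of these 9 was 0.09, compared with 0.56 over all active genes. Low medians in this window were not particular to the members. They were -0.07 in other pericentral genes, 0.02 in other Wnt target genes and 0.22 in TCF/LEF factors and cofactors. Periportal genes had -1.08 and hepatocyte markers -0.84. Wnt receptors (0.45) and the destruction complex list (0.50) lay nearer 0.56, and Wnt ligands (1.23) and inhibitors (0.70) above it.

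The *Glul* window held 14468 and 13985 normalized reads in WT and 31233 and 26008 in KO. KO libraries were thus 2.004 times as high, without overlap. This gave a log2 fold change of 1.003 (SE 0.25, adjusted p = 0.0014), which is 0.44 above the median of all active genes. *Nkd1* held far fewer reads, 25.2 and 30 in WT and 48.8 and 85.0 in KO, with a log2 fold change of 1.20 (SE 0.39, adjusted p = 0.013), 0.64 above that median. Neither call held in every fit of 3 libraries. *Glul* kept log2 fold changes from 0.87 to 1.13 but was not called in any of them. *Nkd1* was called without KO1 (1.59) and not without WT1, WT2 or KO2 (0.80 to 1.32). Such fits leave 1 library in a group, and their calls also follow the spread over all active genes.

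The promoter-proximal calls of *Glul* and *Nkd1* also depend on the scaling. With TMM factors taken within promoter-proximal windows, the split over all active genes turned from 3282 up and 280 down to 638 up and 949 down. *Glul* (0.43, adjusted p = 0.48) and *Nkd1* (0.64, adjusted p = 0.21) then lost their calls, and *Tbx3* (-1.02, adjusted p = 0.0045) and *Rnf43* (-0.83, adjusted p = 0.011) were called down. On the deposited scale, *Tbx3* windows held 403 and 249 reads in WT and 172 and 313 in KO, and *Rnf43* windows held 460 and 303 in WT and 271 and 361 in KO. For both genes the groups overlapped (log2 fold changes of -0.45 and -0.26).

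The other members did not pass the test. *Axin2* held 119 and 86 reads in WT and 130 and 141 in KO, higher in both KO libraries, with a log2 fold change of 0.42 (SE 0.34, adjusted p = 0.33). *Znrf3* ranged from 102 to 135 reads, *Rhbg* from 53.0 to 108 and *Lect2* from 20 to 29.8, with overlapping groups in each. *Lgr5*, in spite of its gene body signal, held only 4 to 5.74 reads. The counted start of *Slc1a2* was nearly empty, with 0 and 1 reads in WT and 1.06 and 1.52 normalized reads in KO, each of the latter a single read. A count of 0 allows up to 3 reads by counting error alone, so no fold change is given for it.

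The pausing index divides the promoter-proximal density of a gene by its gene body density. For *Glul* it was 454 and 488 in WT and 1352 and 1221 in KO, the highest of the 9 members with more than 1 promoter-proximal read. Changes were tested on the log2 ratio of reads in the same library, which also tests whether the changes in the 2 regions of a gene differ. As in promoter-proximal windows, each SE came from the trend over all active genes and not from the gene's own replicates. *Glul* was the only member called (log2 change of 1.45, SE 0.44, adjusted p = 0.020), with 1 of 10 up compared with 11.2% of all active genes and 0 down compared with 0.543%. At an unadjusted p under 0.05 it was also 1 up and 0 down, compared with 33.7% and 1.25% of all active genes, and edgeR and DESeq2 also called 0 down. The promoter-proximal rise and the gene body fall of *Glul* therefore differed in this fit. The change in *Glul* ranged from 1.38 to 1.52 with each library left out. It was called without KO1 and not without WT1, WT2 or KO2. These fits leave 1 library in a group, and their calls also follow the spread over all active genes. With TMM factors within each region the change in *Glul* was 0.80 (adjusted p = 0.33).

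**Figure D3:**
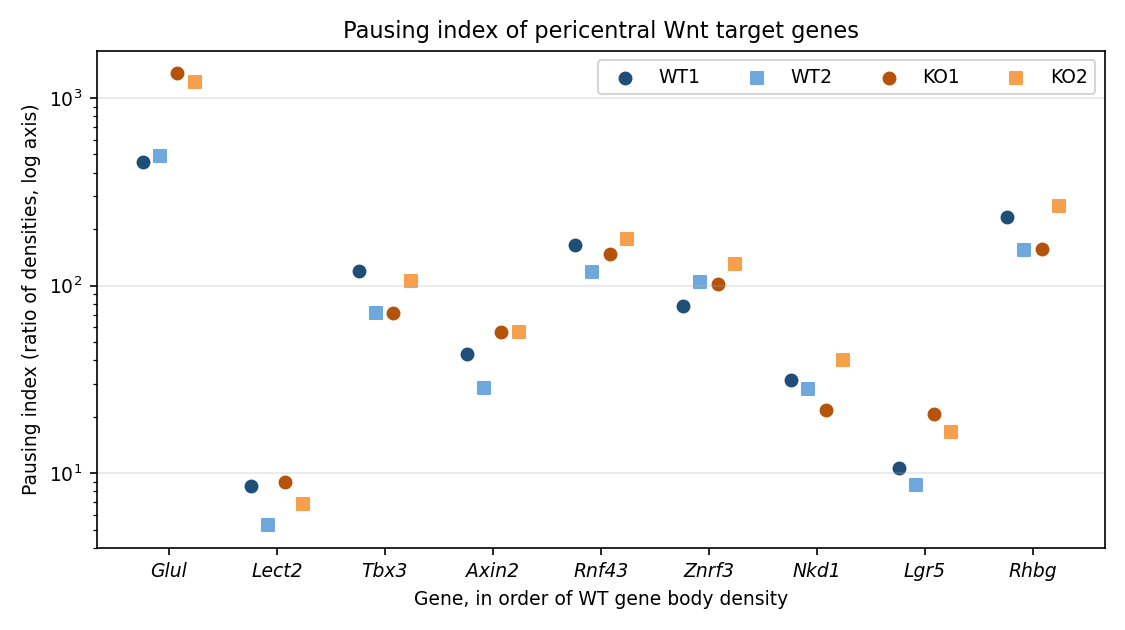
Pausing index (promoter-proximal over gene body density, log axis) of 9 genes with 1 point per library; *Slc1a2* is left out because its promoter-proximal window is nearly empty. *Glul*, *Axin2* and *Lgr5* are higher in both KO libraries, while in the other genes WT and KO points overlap.

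*Axin2* and *Lgr5* had higher pausing indices in both KO libraries as well. *Axin2* went from 42.9 and 28.4 in WT to 56.4 and 56.2 in KO, a log2 change of 0.69 (SE 0.41, adjusted p = 0.21). *Lgr5* went from 10.7 and 8.69 to 20.6 and 16.5, a log2 change of 0.93 (SE 0.48, adjusted p = 0.15). In *Lgr5*, this ratio rests on the few promoter-proximal reads given above. *Tbx3*, *Rnf43*, *Znrf3*, *Lect2*, *Rhbg* and *Nkd1* overlapped between WT and KO, with log2 changes from -0.09 in *Tbx3* to 0.35 in *Znrf3*. The median of all active genes was 0.61, above these 6 members, which were grouped by their overlap, and below *Glul*, *Lgr5* and *Axin2*.

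In the deposited list of 2282 intergenic enhancers, which was made from the pooled reads and has no values per library, 42 were linked to a member by at least 1 rule. *Glul* was the closest gene of 5 of them, at 108267 to 249498 bp from its start, and no other member was the closest gene of any. Of the 1379 genes that were closest to an enhancer in the list, 54 were closest to 5 or more. *Znrf3* had the only link within 50 kb. Of the 42, 40 were linked by 4DGenome interactions, for which the list names T helper, stem and progenitor cells and no liver. Some of these interactions join a member to an enhancer on another chromosome. *Glul*, on chromosome 1, was linked to enhancers on chromosomes 2, 3, 11 and 14. The enhancers linked to *Rnf43*, on chromosome 11, lay on chromosomes 10 and 17. The 42 are thus not a count of nearby enhancers. *Lect2* and *Rhbg* had no linked enhancer.

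The other genes of the pathway were counted in gene bodies, beginning with the ligands. Of 7 active Wnt ligand, R-spondin and secretion genes, 5 were called up and 1 down (10.4% and 11.4% of all active genes). The median change was 0.96. These shares also apply to the counts of called genes in the lists below. *Rspo3*, an R-spondin made by central vein cells, had 545 and 582 reads in WT and 1986 and 1760 in KO (log2 fold change of 1.73, SE 0.12, adjusted p = 1.72e-10). *Wnt2*, a ligand made by liver endothelial cells, had 553 and 551 in WT and 1343 and 1319 in KO (1.27, adjusted p = 1.63e-08). *Wnt4*, *Wnt9b* and *Wls*, the carrier needed to secrete Wnt proteins, were the other 3 called up (0.82 to 1.03). *Wnt5a* was called down, at 134 and 124 reads in WT and 72.1 and 95.7 in KO (-0.63, adjusted p = 0.026), and lost the call in 8 of 16 alternatives, among them DESeq2 (adjusted p = 0.093), TMM (-0.55) and fits without WT1 (-0.57) or KO1 (-0.43). Without a filter on activity 2 ligand genes were called up, and 3 with a density over 10 per kb. Markers of cells that make such ligands moved with them. Endothelial markers summed to 824 and 852 reads per kb in WT and 1449.8 and 1336 in KO, with 5 of 7 called up and 0 down, and stellate cell markers to 126 and 187 in WT and 378 and 379 in KO, with 6 of 6 called up. The part of these shifts in the changes of the ligands was not tested.

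Receptors and the signalling core were counted next. Of 10 active receptor genes, 0 were called up and 2 down (10.4% and 11.4% of all active genes), with a median of -0.14. Without being called, *Fzd4* rose (0.48) and *Fzd6* fell (-0.47) by adjusted p. *Lgr4*, the broadly expressed relative of *Lgr5*, had 5988 and 5098 reads in WT and 2455 and 2305 in KO (-1.22, adjusted p = 8.21e-09), and *Fzd8*, a Wnt receptor gene, had 612 and 754 in WT and 373 and 366 in KO (-0.88, adjusted p = 2.76e-05). Of the 12 genes of the beta-catenin destruction complex and its transducers 0 were called, with a median of -0.05. By adjusted p alone *Apc* rose (0.33), and *Btrc* (-0.44) and *Dvl1* (-0.43) fell. *Ctnnb1*, which encodes beta-catenin, had 4492 and 4417 reads in WT and 4425 and 4095 in KO, a log2 fold change of -0.07 (SE 0.11, adjusted p = 0.66). Its sign turned under scaling within gene bodies (0.01 with TMM).

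Among 10 active TCF/LEF factors and nuclear cofactors 0 were called, with a median of 0.00, while by adjusted p alone *Tcf7l1* rose (0.36) and *Tle1* fell (-0.57). Of 3 active Wnt inhibitors, *Dact1*, a Dishevelled antagonist, was called up (1.04, adjusted p = 0.00026) and *Notum*, a Wnt deacylase, was called down (-0.61, adjusted p = 0.0057). The call of *Notum* was lost in 7 of 17 alternatives, among them TMM (-0.53), a pseudocount of 10 (-0.59) and fits without WT1 (-0.49) or KO1 (-0.49). Of 5 other active Wnt target genes (*Sp5*, *Ccnd1*, *Myc*, *Tnfrsf19* and *Cd44*) 0 were called, and only *Cd44* rose by adjusted p (0.37).

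The hepatocyte zones were compared in the same way. Of 16 other active pericentral genes, 3 were called up and 4 down (10.4% and 11.4% of all active genes), with a median of -0.26. By adjusted p, 3 rose and 7 fell (17.0% and 22.1% of all active genes). The falls without a call were *Cyp2e1* (-0.57), *Ahr* (-0.43) and *Cyp7a1* (-0.38). *Aldh1a1*, a retinaldehyde dehydrogenase, had 78.0 and 86 reads in WT and 442 and 650 in KO (2.70, adjusted p = 1.70e-10). *Oat*, ornithine aminotransferase, had 867 and 1619 in WT and 3353 and 3814 in KO (1.59, adjusted p = 1.22e-07). *Por*, the electron donor of cytochromes P450, was called down (-0.96, adjusted p = 2.43e-07), as was *Rgn*, a calcium-binding gluconolactonase (-0.83, adjusted p = 0.00025). *Rgn* lost its call without WT1 (-0.51) or KO1 (-0.76), and the number of pericentral genes called down was 7 without WT2 and 2 without KO1.

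Of 20 active periportal genes, 16 were called down and 1 up (11.4% and 10.4% of all active genes). Their median was -1.52, compared with -0.31 for the pericentral Wnt target genes. The largest falls were in the serine dehydratase genes *Sds* (4859 and 6286 reads in WT, 349 and 290.0 in KO, -4.11, adjusted p = 6.18e-16) and *Sdsl* (-2.50, adjusted p = 1.35e-11). *Pigr*, the receptor that carries IgA into bile, was the gene called up (0.78, adjusted p = 0.00090). Without a filter on activity 8 periportal genes were called down and 0 up. The hepatocyte markers moved the same way, with 4 of 6 called down and a median of -1.05, and their part in the periportal falls was not tested. The difference between the zones was not tested.

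**Figure D4:**
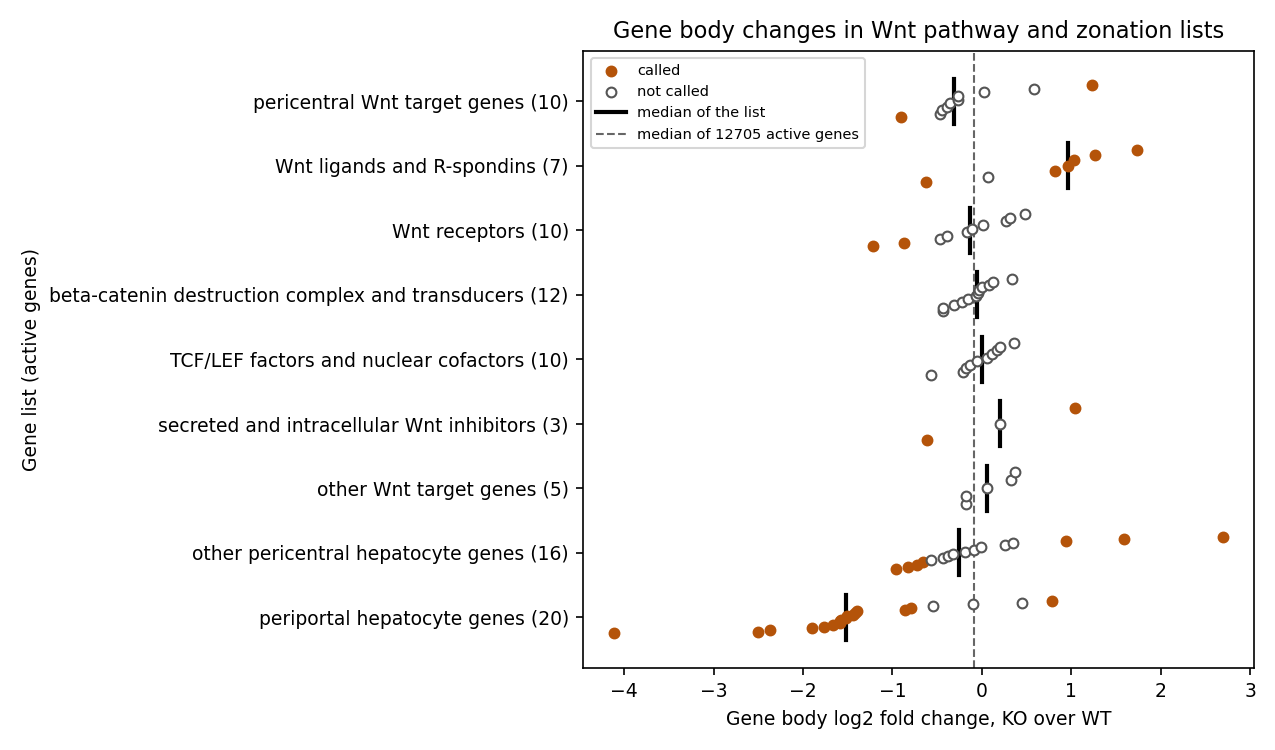
Gene body log2 fold change, KO over WT, of each active gene in the lists, with called genes in orange, list medians as black bars and the median of all active genes as a dashed line; the number of active genes is given in parentheses. The pericentral Wnt target genes center at -0.31, the ligands at 0.96 and the periportal genes at -1.52.

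The remaining cell type markers, as summed gene body densities per kb, shifted less or at low levels. Kupffer cell markers ranged from 1038 to 1180 in WT and from 1116 to 1298 in KO, and 0 of 5 were called. Cholangiocyte markers (27.7 and 38.0 in WT, 28.4 and 26.7 in KO) had 1 of 3 called down, and erythroid markers (75.3 and 85.5 in WT, 29.4 and 32.8 in KO) had 3 of 3 called down. No marker in the table was at 0 in any library. Their part in the changes of the pericentral genes was not tested.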

How the data were processed

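The authors used cutadapt for trimming and Bowtie2 for alignment to mm10, discarded reads from ribosomal loci or of low mapping quality, and counted the rest by strand over RefSeq transcripts with NRSA. The deposited WT2 values are counts of reads. The values of WT1, KO1 and KO2 are a normalized signal that the authors obtained by scaling counts (factors 1.15, 1.06 and 1.52), and all densities are signal per bp. Division by the factors gave whole reads (tolerance 0.001) for 100% of values. The deposited enhancer list gives positions, distances and linked genes from pooled reads.

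A symbol with several transcripts was represented by the one with most promoter-proximal reads on average. Log2(normalized reads + 1) was compared between KO and WT in R 4.3.3 with limma 3.58.1, with a trend, empirical Bayes and no block, and p values were adjusted by Benjamini-Hochberg over 12705 active genes. Alternatives used edgeR 4.0.16 and DESeq2 1.42.0 on the recovered reads, pseudocounts of 0.1 and 10, other filters, scalings and thresholds, a replicate block, and fits without each library. Replicates are separate pools of nuclei, and whether same-numbered pools share a session was not given in the sources used here. The fits were also run on simulated data, with planted changes larger than any member's and none in genes with few promoter-proximal reads. That run held no shift common to all genes, so it does not show how the fits perform at the members' changes. Python 3.11.15, pandas 2.3.3 and matplotlib 3.10.9 were used otherwise.

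The members and gene lists were chosen with earlier results of these data known. Named are all members, *Hdac3*, *Ctnnb1* and, in each pathway list, up to 2 called rises and 2 called falls with the largest change and no overlap between groups. *Wnt4*, *Wnt9b*, *Wls*, *Fzd4*, *Fzd6*, *Apc*, *Btrc*, *Dvl1*, *Tcf7l1*, *Tle1*, *Cd44*, *Cyp2e1*, *Ahr* and *Cyp7a1* were named after their values were seen. Markers with no row in the table used here were left out of the sums and counts.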

Additional observations from a re-analysis of the deposited data

How the results depend on the processing

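In gene bodies, *Lgr5* and *Nkd1* kept their direction in every alternative in which they were tested, which for *Lgr5* leaves out the density filter of 10 per kb. Without a filter on activity 0 members were called in either direction, against 406 genes up and 589 down over the whole table. By adjusted p alone, 1 member rose (*Slc1a2*) and 0 fell there. Without a threshold on the fold change the calls were 2 and 4 members and 2161 and 2807 active genes. With median-of-ratios or TMM factors within the region, or gene body median-of-ratios factors for both regions, 2 members were called up, *Slc1a2* joining *Nkd1*, and so it was without KO1 (2 members). With a gene body density over 10 per kb, 0 members were called down, because *Lgr5* and *Rhbg* were then not tested. *Rhbg* turned its sign with edgeR (-0.013), DESeq2 (-0.003) and with a library left out (-0.24 to 0.29), and *Ctnnb1* with median-of-ratios within the region (0.016), TMM (0.014) and gene body factors for both regions (0.016).

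In promoter-proximal windows, the members called up numbered 0 without the filter and with median-of-ratios or TMM within the region, where 2 were called down, and 0 to 1 with a library left out. Over all active genes, 3282 up and 280 down became 0 and 0 without the filter, 634 and 942 with median-of-ratios, 638 and 949 with TMM, and 319 to 3522 up and 83 to 182 down with a library left out. DESeq2 called 180.0 down. The sign turned with median-of-ratios and TMM in *Axin2* (-0.15 and -0.15), *Lgr5* (-0.44 and -0.44), *Znrf3* (-0.48 and -0.48) and *Rhbg* (-0.43 and -0.43). With a library left out the values crossed 0 in *Lgr5* (-0.19 to 0.24), *Rnf43* (-0.56 to 0.045), *Znrf3* (-0.073 to 0.24), *Lect2* (-0.44 to 0.12) and *Rhbg* (-0.37 to 0.64).

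For the pausing index, the members called up were 2 with a pseudocount of 10 (*Lgr5* beside *Glul*), 0 without the filter, 0 with median-of-ratios or TMM, and 0 without WT1, WT2 or KO2. Over all active genes, 1421 up and 69 down became 2388 and 121 with a pseudocount of 10, 0 and 0 without the filter, 2 and 12 with median-of-ratios, 4 and 18 with TMM, and 27 to 4576 up and 4 to 111 down with a library left out. Those down were 18 with edgeR, 8 with DESeq2 and 43 with a density over 10 per kb. The sign turned with median-of-ratios and TMM in *Rnf43* (-0.44 and -0.44), *Znrf3* (-0.30 and -0.29), *Lect2* (-0.40 and -0.40) and *Rhbg* (-0.54 and -0.54), and with edgeR (0.0023) and DESeq2 (0.0049) in *Nkd1*. With a library left out the values crossed 0 in *Tbx3* (-0.45 to 0.27), *Rnf43* (-0.027 to 0.45), *Lect2* (-0.11 to 0.57), *Rhbg* (-0.27 to 0.48) and *Nkd1* (-0.47 to 0.40). The causes of these changes were not tested.

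Deviations of WT1 and KO1 from their group means correlated at -0.11 in promoter-proximal windows, 0.02 in gene bodies and -0.07 in the pausing index, and whether same-numbered libraries share a session was not given in the sources used here, so they were not treated as pairs. With a replicate block, promoter-proximal calls over all active genes were 1772 up and 177 down, and pausing calls 131 up and 17 down with 0 members, *Glul* at an adjusted p of 0.12. A crossed replicate block, added after the data were seen, gave 4121 pausing calls up and 131 down. Of the 42 enhancers linked to members, 5 were linked as closest gene and 1 within 50 kb. The depth limits *Slc1a2* and *Lgr5* most, with at most 5 reads in a promoter-proximal window, and 2 pools per genotype limit every p value.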
